A study of Homo sapiens with 8 samples.

Results

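NF-kappaB is a family of dimeric transcription factors, and 10 of its genes were followed here: the subunit genes NFKB1, NFKB2, RELA, RELB and REL, the inhibitor genes NFKBIA, NFKBIE and TNFAIP3, and the target genes LTB and CD83. Every probe set annotated to one of these symbols was taken, which gave 20 of the 54675 probe sets and 10 of the 19775 genes measured. All groups share 1 cell line, CUTLL1, a human T-lymphoblastic line that the study used as a model of T-cell acute lymphoblastic leukemia. Each group was cultured for 48 h and measured on 2 Affymetrix arrays. The cells received vehicle (DMSO), 1 microM PF-03084014 (a gamma-secretase inhibitor, which prevents the cleavage that releases active NOTCH), 1 microM dexamethasone (a synthetic glucocorticoid), and PF-03084014 with dexamethasone at 1 microM each, called the combination. The labels do not say that replicas were cultured independently. A p-value therefore sets a difference against the spread between these arrays, which may be technical.

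In resting cells NF-kappaB dimers are held in the cytoplasm by inhibitors of the IkappaB family, to which NFKBIA and NFKBIE belong. Signals from receptors such as those for tumour necrosis factor activate IkappaB kinases, the inhibitors are degraded and the dimers enter the nucleus. There they switch on their own inhibitors again, among them NFKBIA and TNFAIP3, a ubiquitin-editing enzyme, which ends the signal. RELA, RELB and REL carry transactivation domains, whereas NFKB1 and NFKB2 encode precursors that are processed to DNA-binding partners. In T-cell leukemia NF-kappaB activity has been described downstream of NOTCH, and glucocorticoid receptors are known to repress NF-kappaB and to induce its inhibitors in many cell types.

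Values are deposited probe-set intensities, set to a floor of 16 and converted to log2, and a gene is given by its brightest probe set unless another is named. A gene is said to have risen or fallen where limma's Benjamini-Hochberg adjusted p over all 19775 genes was under 0.05. All 8 T-lineage marker genes checked had mean intensities above 100. The second combination array stood apart, since its median intensity was 76.3 and those of the remaining 7 lay between 61.8 and 63.9. The log2 difference between replicates had an SD of 0.548 in the combination and 0.325 to 0.361 elsewhere, while the fit uses 1 pooled spread per gene, so that standard errors of contrasts with the combination tend to be too small. Bacterial control probe sets, which are not aimed at human genes, had medians of 18.6 to 23.4 and reached 64.7 to 119 at most. NFKB2 and RELB lay in that range. Whether control RNA had been added to the samples was not checked.

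Dimers of the family bind a short element known as the kappaB site. RefSeq promoter windows (GRCh38.p14, from 250 bases before to 50 after a start site) were found for 8 members, 14 windows in all. The kappaB consensus, searched on both strands, matched in 9 of these windows, from 7 members, against 5.91% of all 35116 windows. The 2 LTB windows overlap almost wholly and hold the same site, so that site is counted in both. The genes are known NF-kappaB genes, so matches are a description and say nothing about binding in these cells. The sequences below show the 150 bases before the start for the members that were called in a comparison, on the strand of the gene, 5′ to 3′, with the matches in capitals. LTB is at chr6:31582426-31582575 (minus strand), CD83 at chr6:14117622-14117771 (plus strand, the second of its 2 windows) and TNFAIP3 at chr6:137867109-137867258 (plus strand).
LTB: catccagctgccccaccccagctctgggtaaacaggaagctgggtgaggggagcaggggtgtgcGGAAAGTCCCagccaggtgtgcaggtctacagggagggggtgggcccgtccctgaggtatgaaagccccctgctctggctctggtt
CD83: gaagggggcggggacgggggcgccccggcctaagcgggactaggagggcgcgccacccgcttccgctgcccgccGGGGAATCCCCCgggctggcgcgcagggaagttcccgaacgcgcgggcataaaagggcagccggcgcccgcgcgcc
TNFAIP3: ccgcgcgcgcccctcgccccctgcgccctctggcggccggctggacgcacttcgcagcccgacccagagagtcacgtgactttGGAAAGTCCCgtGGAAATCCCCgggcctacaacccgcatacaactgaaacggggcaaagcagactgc

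The match in LTB and the first of the 2 in TNFAIP3 have the same 10 bases, GGAAAGTCCC. In LTB the match starts 86 bases before the start site, and in TNFAIP3 the matches start 67 and 55 bases before it. In CD83 a stretch of overlapping matches starts 76 bases before it. For comparison, 1 matching stretch is shown for each member that had a match and was not called, with 10 bases on each side. Overlapping matches are joined in 1 stretch. The stretches are from NFKB1 (chr4:102501300-102501329, plus strand), NFKB2 (chr10:102394461-102394491, plus strand), REL (chr2:60881517-60881547, plus strand) and NFKBIA (chr14:35404811-35404840, minus strand).
NFKB1: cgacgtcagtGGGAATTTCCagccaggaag
NFKB2: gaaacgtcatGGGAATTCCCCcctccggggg
REL: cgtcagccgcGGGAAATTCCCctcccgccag
NFKBIA: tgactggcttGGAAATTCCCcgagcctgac
The NFKB2 stretch shown is 1 of 4 such stretches in 2 of its windows. The others start 78 bases before the start site of the same window, and 176 and 21 bases before that of the next.

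LTB, which encodes the membrane-anchored subunit of the lymphotoxin heterotrimer, rose with PF-03084014 whether or not dexamethasone was present. The 2 DMSO arrays gave LTB intensities of 3262 and 2743, followed by 5459 and 5852 with PF-03084014, 2703 and 2645 with dexamethasone, and 5729 and 5037 with the combination. All 4 arrays with PF-03084014 were thus above all 4 without it, and both dexamethasone arrays were just below both DMSO arrays. LTB was 1.89-fold higher with PF-03084014 than with DMSO (log2 difference 0.92 ± 0.10, estimate ± SE, n = 2 per group, limma adjusted p = 0.0369). It was 1.80-fold higher with the combination than with DMSO (0.84 ± 0.10, limma adjusted p = 0.0101) and 2.01-fold higher with the combination than with dexamethasone (1.01 ± 0.10, limma adjusted p = 0.0146). With dexamethasone alone the difference from DMSO was -0.16 ± 0.10 (95% interval -0.42 to 0.10, limma adjusted p = 0.776), and between the combination and PF-03084014 alone it was -0.073 ± 0.10 (-0.34 to 0.19, adjusted p = 0.739).

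A second LTB probe set, which had a mean intensity of 350.3 against 4179 for the first, did not show the rise with PF-03084014 alone. It read 273 and 368 with DMSO, 332 and 308 with PF-03084014, 277 and 315 with dexamethasone, and 376 and 554 with the combination. Its difference from DMSO was 0.0095 ± 0.23 with PF-03084014 and 0.53 ± 0.23 with the combination, neither called among the 41097 probe sets with 1 gene. In that fit of probe sets the brighter one had the same 0.92 with PF-03084014 but an adjusted p of 0.0585, whereas its 2 calls with the combination held. When both probe sets were averaged the LTB difference with PF-03084014 was 0.46 (limma adjusted p = 0.101). The LTB call for PF-03084014 against DMSO was sensitive to the error estimate too, and held in 6 of 18 alternative settings, with adjusted p from 0.00175 to 1.00. Among the settings without 1 array it held only where a combination array was left out, while its value stayed between 0.79 and 1.04. The call for the combination against DMSO held in 16 of 18 settings and that for the combination against dexamethasone in 14 of 18, ending without either dexamethasone array (limma adjusted p = 0.106 and 0.102).

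**Figure D1:**
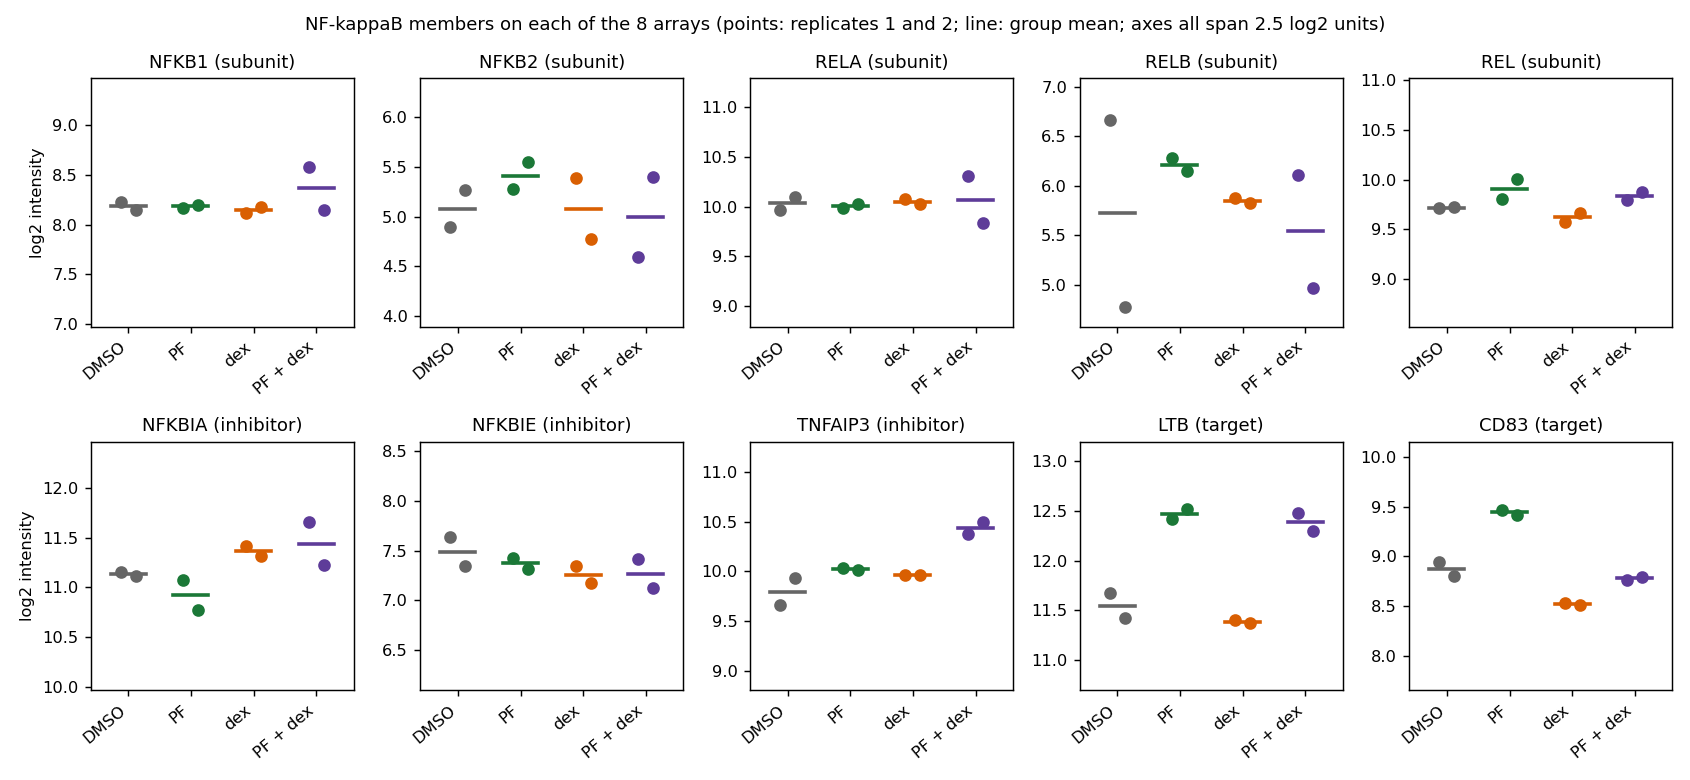
Log2 intensity of each member's brightest probe set on the 8 arrays, by treatment (DMSO, PF-03084014, dexamethasone and both). Points are replicates, lines group means, and every axis spans 2.5 log2 units. LTB was high on all 4 arrays with PF-03084014, CD83 on those with PF-03084014 alone, and TNFAIP3 on those with both compounds, whereas the RELB replicates lay far apart in the DMSO and combination groups.

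CD83, an immunoglobulin-family surface protein of activated lymphocytes, dendritic cells and thymic epithelium, rose with PF-03084014 alone and was lower with the combination than with PF-03084014. Its single probe set read 493 and 446 with DMSO, 708 and 685 with PF-03084014, 370 and 366 with dexamethasone, and 435 and 443 with the combination. The replicates lay close together and no 2 groups overlapped, with PF-03084014 highest, then DMSO, the combination and dexamethasone. CD83 was 1.49-fold higher with PF-03084014 than with DMSO (log2 difference 0.57 ± 0.069, limma adjusted p = 0.0423) and stood at 63.0% of the PF-03084014 level with the combination (-0.67 ± 0.069, limma adjusted p = 0.0211). Against DMSO it differed by -0.35 ± 0.069 with dexamethasone (78.5% of control, limma adjusted p = 0.246) and by -0.095 ± 0.069 with the combination (adjusted p = 0.418), neither called. In the presence of dexamethasone the PF-03084014 arrays were still above those without it, by 0.26 ± 0.069, which was not called (adjusted p = 0.0944). In the fit of probe sets the CD83 difference of PF-03084014 from DMSO was not called (limma adjusted p = 0.0504). The combination was still called lower than PF-03084014 there (limma adjusted p = 0.0252). The call against DMSO held in 8 of 18 alternative settings, with adjusted p from 0.0204 to 0.231 and values from 0.50 to 0.64. Of the settings that left out 1 array, it was lost in the 6 without a DMSO, PF-03084014 or dexamethasone array. The call for the combination against PF-03084014 held in 13 of 18, and ended without either PF-03084014 or either dexamethasone array (adjusted p from 0.0867 to 0.146).

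LTB and CD83 are also expressed by B cells and dendritic cells, so markers of these were read on the same arrays. Of 5 B-lineage genes, 1, CD79A, had a mean intensity over 100. It read 297 and 300 with DMSO, 381 and 402 with PF-03084014, 444 and 434 with dexamethasone, and 504 and 585 with the combination, so that its order over the groups was that of neither LTB nor CD83. The defining B-cell genes MS4A1 (63.9 to 132) and PAX5 (29.4 to 52.9) lay near the range of the bacterial controls. The summed intensity of the 5 genes was 508 to 551 with DMSO, 578 to 602 with PF-03084014, 615 to 639 with dexamethasone and 668 to 776 with the combination. Of 7 myeloid and dendritic genes, 2 had means over 100, ITGAX and CSF1R. ITGAX read 129 and 106 with DMSO, 139 and 175 with PF-03084014, 114 and 107 with dexamethasone, and 124 and 157 with the combination. Its group means had the same order as those of LTB, with overlap of the DMSO arrays with the dexamethasone and combination arrays. CSF1R read 86.3 and 99.7, 105 and 101, 79.1 and 108, and 104 and 209.5 in the same groups. The summed intensity of all 7 was 355 to 378, 443 to 449.9, 329 to 410.0 and 361 to 562 in the same groups. The part of these markers in the LTB and CD83 results was not tested. In such bulk RNA, more cells with the transcript and more transcript per cell cannot be told apart.

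TNFAIP3, which removes activating ubiquitin chains from signalling adaptors and restrains NF-kappaB, rose with the combination. It read 807 and 979 with DMSO, 1049 and 1033 with PF-03084014, 995 and 1001 with dexamethasone, and 1330 and 1441 with the combination. Every treated array was above both DMSO arrays, and those of the combination were above all others. TNFAIP3 was 1.56-fold higher with the combination than with DMSO (log2 difference 0.64 ± 0.098, limma adjusted p = 0.0178). The single compounds differed from DMSO by 0.23 ± 0.098 (PF-03084014, limma adjusted p = 0.425) and 0.17 ± 0.098 (dexamethasone, adjusted p = 0.752). The combination differed from dexamethasone by 0.47 ± 0.098 (adjusted p = 0.0524) and from PF-03084014 by 0.41 ± 0.098 (adjusted p = 0.112). A second, dimmer probe set read 303 and 573 with DMSO, 561 and 474 with PF-03084014, 470.4 and 471 with dexamethasone, and 519 and 678 with the combination. Its difference for the combination against DMSO was 0.51 ± 0.32, on overlapping arrays and not called. When both probe sets were averaged the TNFAIP3 difference was 0.57 and was not called (limma adjusted p = 0.164). Nor was it called in a fit of only the groups compared. The TNFAIP3 call held in 10 of 17 alternative settings, with values from 0.50 to 0.78, and ended without combination replicate 2 (0.58, limma adjusted p = 0.0634) and without any PF-03084014 or dexamethasone array.

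NFKBIA encodes IkappaB-alpha, the inhibitor that NF-kappaB resynthesises most quickly and a known glucocorticoid-induced gene. Its intensity was 2277 and 2219 with DMSO, 2149 and 1753 with PF-03084014, 2729 and 2558 with dexamethasone, and 3239 and 2389 with the combination. Both groups with dexamethasone were above DMSO and the PF-03084014 arrays below it, but the combination replicates were far apart and no NFKBIA difference was called. Against DMSO it stood at -0.21 ± 0.17 with PF-03084014 (limma adjusted p = 0.719), 0.23 ± 0.17 with dexamethasone (adjusted p = 0.802) and 0.31 ± 0.17 with the combination (adjusted p = 0.295). Between the combination and PF-03084014 it was 0.52 ± 0.17 (adjusted p = 0.191). The 95% intervals for dexamethasone (-0.19 to 0.65) and the combination (-0.11 to 0.73) both include 0. Without combination replicate 2 the difference of the combination from DMSO was 0.53, and without replicate 1 it was 0.088. A dim second probe set with a mean of 75.3 stood at 0.26 ± 0.32 with PF-03084014, opposite in sign to the first.

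NFKBIE encodes IkappaB-epsilon, a slower-acting member of the same family. It read 199 and 162 with DMSO, 172 and 159 with PF-03084014, 162 and 144 with dexamethasone, and 170.4 and 139 with the combination. All groups overlapped DMSO. The differences from DMSO were -0.12 ± 0.18, -0.23 ± 0.18 and -0.22 ± 0.18 in that order, and none was called.

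**Figure D2:**
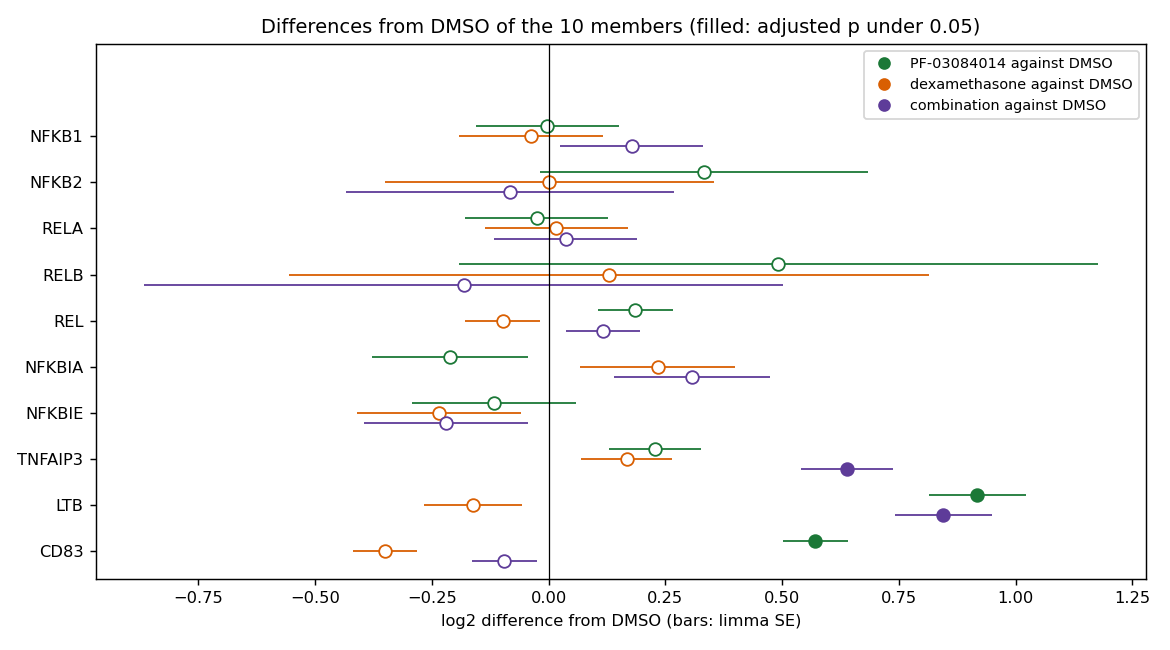
Log2 difference from DMSO of the 10 members with PF-03084014, dexamethasone and the combination (points, with limma standard errors as bars). Filled points passed an adjusted p of 0.05 over all genes: LTB and CD83 with PF-03084014, and LTB and TNFAIP3 with the combination. The DMSO arrays are shared by all 3 comparisons, so the points of a gene are not independent.

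No subunit gene was called in any of the 6 contrasts. RELA, whose product is the main transactivating subunit, read 1002 and 1099 with DMSO, 1015 and 1046 with PF-03084014, 1077 and 1045 with dexamethasone, and 1265 and 915 with the combination. The group means of this brightest probe set spanned 0.062 log2 units, and each treated group overlapped DMSO. A second RELA probe set, with a mean of 147, read 137 and 154 with DMSO, 130.3 and 155 with PF-03084014, 121 and 131 with dexamethasone, and 169 and 182 with the combination. There both dexamethasone arrays were below DMSO and both combination arrays above all others, and the combination differed from dexamethasone by 0.48 ± 0.14, not called (limma adjusted p = 0.134 over probe sets). With PF-03084014 the 95% interval of the difference of the brightest RELA probe set was -0.41 to 0.36 and with dexamethasone -0.37 to 0.40, so changes within those limits cannot be told from none. NFKB1, the precursor of RELA's most common partner, read 301 and 283 with DMSO, 288 and 294 with PF-03084014, 278 and 289.9 with dexamethasone, and 383 and 284 with the combination. Only the first combination array stood out for NFKB1, and without it the NFKB1 difference of the combination from DMSO was -0.039 in place of 0.18 ± 0.15. That array was also the highest for RELA and NFKBIA. The lowest, however, was the second combination array for RELA (915) and the second PF-03084014 array for NFKBIA (1753).

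REL, the lymphoid subunit c-Rel, had 5 probe sets, which did not move together. The brightest read 839.5 and 847 with DMSO, 895 and 1027 with PF-03084014, 763 and 813 with dexamethasone, and 889 and 938 with the combination. The arrays with PF-03084014 were all above DMSO and those with dexamethasone alone below it, with differences of 0.19 ± 0.080, -0.099 ± 0.080 and 0.12 ± 0.080, none called (limma adjusted p = 0.422, 0.836 and 0.393). The 2 next by brightness had the same signs, and with the combination against dexamethasone stood at 0.48 ± 0.087 (adjusted p = 0.0565 over probe sets) and 0.44 ± 0.11 (0.0929). The fourth had opposite signs where PF-03084014 was present. It read 334 and 403 with DMSO, 292 and 162 with PF-03084014, 267 and 276 with dexamethasone, and 181 and 173 with the combination, a difference of -1.05 ± 0.29 for the last (adjusted p = 0.0992). The fifth had a mean of 33.6 and was within the range of the bacterial controls.

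NFKB2 and RELB, the partners of the alternative NF-kappaB pathway, were too dim for firm statements. RELB read 101 and 27.5 on the 2 DMSO arrays, 77.7 and 70.9 with PF-03084014, 58.7 and 56.7 with dexamethasone, and 69.0 and 31.3 with the combination, and its DMSO replicates spanned the treated groups. The probe set that represented NFKB2 had a mean of 36.1. A second one of similar brightness read 44.8 and 53.0 with DMSO, 30.2 and 30.3 with PF-03084014, 25.3 and 24.8 with dexamethasone, and 31.9 and 31.2 with the combination. All 6 treated arrays were below both DMSO arrays, and in the fit of probe sets, where 0.394%, 0.0487% and 7.95% of probe sets were called with PF-03084014, dexamethasone and the combination against DMSO, it was called lower with the combination (-0.63 ± 0.11, limma adjusted p = 0.0377) but not with PF-03084014 (-0.69, adjusted p = 0.110) or dexamethasone (-0.96, adjusted p = 0.131). The first probe set stood at -0.083 with the combination, and the last of its 3 was at or below the floor on every array.

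**Figure D3:**
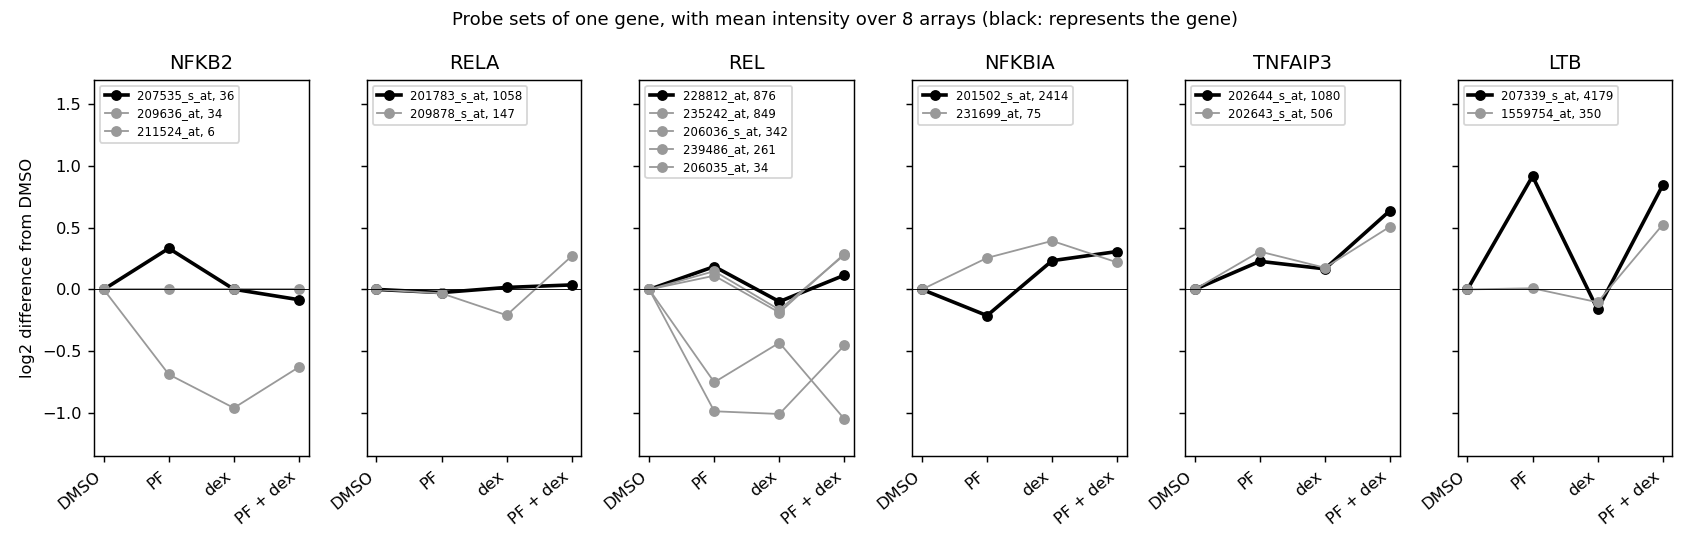
Log2 difference from DMSO of every probe set for the 6 members with more than 1, by treatment, with the mean intensity over the 8 arrays in the key. The black line is the probe set that represents the gene. The LTB probe sets part with PF-03084014 alone, those of TNFAIP3 run in parallel, and those of REL and NFKB2 diverge in sign.

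Counted over the 10 members, PF-03084014 against DMSO gave 2 higher and 0 lower, against a background of 0.819% of all genes called in either direction and 0.47% called higher. Their median difference was 0.21 and that of all genes 0.018. In the fit of probe sets 0 of the 20 member probe sets were called for PF-03084014 against DMSO, with 0.394% of all probe sets called. The members were chosen with earlier results of these data known, so all these counts are a description and not a test of the list. Dexamethasone against DMSO gave 0 called members, with 0.101% of all genes called. At an unadjusted limma p under 0.05 there was 1, CD83, and 1772 among all genes, and the median was -0.018 against 0.014. The combination against DMSO gave 2 higher and 0 lower, where 11.9% of all genes were called and 6.42% called higher, and the median was 0.076 against 0.064. The 2 of 10 members are to be read against that larger share. The combination against dexamethasone gave 1 higher (LTB), with 7.23% of genes called and 3.26% called higher, and the combination against PF-03084014 gave 1 lower (CD83), with 2.84% of genes called and 1.75% called lower. Non-overlap of groups of 2 arrays was common. It held for 6, 5 and 5 members with PF-03084014, dexamethasone and the combination against DMSO, and for 46.5%, 42.6% and 50.5% of all genes.

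Whether the compounds acted together other than additively was tested by their interaction, the effect of dexamethasone in the presence of PF-03084014 minus its effect without it. No member was called, and limma called 0 of 19775 genes (0% called), while 1 member and 1792 genes had an unadjusted p under 0.05. The count over all genes rests on the arrays used: it was 1016 without combination replicate 1 and 11 with a floor of 32, again with 0 members called. The member with an unadjusted p under 0.05 was CD83, whose interaction was -0.32 ± 0.098 (95% interval -0.56 to -0.070, limma adjusted p = 0.462). For LTB it was 0.089 ± 0.15 (-0.28 to 0.46), for TNFAIP3 0.24 ± 0.14 (-0.11 to 0.59) and for NFKBIA 0.29 ± 0.24 (-0.31 to 0.88).

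Upstream and downstream of these members, 68 of 74 listed pathway genes were measured. The lists too were chosen with earlier results of these data known, so their shares are a description. With PF-03084014 against DMSO, 1 rose and 1 fell, 2.94% of them against 0.819% of all genes. The gene that fell was MAP3K8, a kinase that binds the NFKB1 precursor and acts on MAP kinase and NF-kappaB signalling. It read 138 and 140.0 with DMSO, 25.3 and 33.3 with PF-03084014, 127 and 142 with dexamethasone, and 20.8 and 30.9 with the combination. The arrays with PF-03084014 were in the range of the bacterial controls, so the fitted differences give no exact size for the fall. They were -2.26 ± 0.25 alone (limma adjusted p = 0.0357) and -2.45 ± 0.25 with the combination (adjusted p = 0.00652). In the fit of probe sets, 0 of the 2 MAP3K8 probe sets were called with PF-03084014 alone. Both had negative differences there, and both were called lower with the combination. The call with PF-03084014 alone held in 8 of 17 alternative settings, with adjusted p up to 0.168. The gene that rose was BCL2L1, a survival gene and NF-kappaB target, by 0.38 ± 0.032 (adjusted p = 0.0198), a call that held in 7 of 18 settings, with adjusted p up to 0.392. With dexamethasone 0 of 68 were called by limma. The members of each role with the smallest p there were IKBKE (0.47 ± 0.080), MYD88 (0.14 ± 0.050), TAX1BP1 (0.055 ± 0.041), TNF (-0.44 ± 0.10) and BCL2L1 (0.17 ± 0.032).

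With the combination against DMSO, 8 of the 68 rose and 4 fell, 17.6% against the 11.9% of all genes. The median was 0.12 against 0.064. These counts depend on the scaling of the bright second combination array: after a shift of all arrays to a common median, 1 rose and 3 fell. Leaving out 1 array gave from 4 called genes (without DMSO replicate 1) to 21 (without combination replicate 1), and every array left out moved the count by over 1.5 times. Among ligands and receptors 1 of 14 rose and 2 fell. CD27, a costimulatory receptor that signals to NF-kappaB, changed by -1.53 ± 0.15 (limma adjusted p = 0.00565), and TNF, the cytokine gene next to LTB in the RefSeq gene order, by -0.54 ± 0.10 (adjusted p = 0.0324). LTBR, the receptor for the lymphotoxin that LTB helps to form, changed by 0.78 ± 0.14 (adjusted p = 0.0261). Of its 4 probe sets, however, 1 was called and 2 had negative differences, the lowest -1.02. The adaptor genes MYD88 (0.50 ± 0.050) and BIRC2 (0.40 ± 0.088) rose, as did CYLD (0.57 ± 0.11) and TAX1BP1 (0.32 ± 0.041) of the inhibitors. Of the targets CD69 (0.81 ± 0.15) and CFLAR (0.52 ± 0.11) rose and IRF1 (-0.41 ± 0.089) fell. The calls held in 4 of 18 alternative settings for CFLAR and for IRF1, 5 for BIRC2, 6 for CYLD and 8 for LTBR. They held in 9 of 17 for TNF, and in 11 of 18 for CD69, 13 for TAX1BP1, 16 for MYD88 and 17 for CD27. In the fit of probe sets the brightest CFLAR (limma adjusted p = 0.0591) and BIRC2 (0.0632) probe sets and both of IRF1 were not called. CFLAR had 14 probe sets, 2 of them called higher and 3 with negative differences.

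CYLD, a deubiquitinase that blocks IkappaB kinase activation, has been described in T-cell leukemia as repressed by the NOTCH target HES1. CYLD read 595 and 510.3 with DMSO, 684 and 731 with PF-03084014, 558 and 619 with dexamethasone, and 868 and 771 with the combination, and 3 of its 7 probe sets were called higher with the combination. With PF-03084014 alone it stood at 0.36 ± 0.11 and was not called (limma adjusted p = 0.247), while HES1 changed by -1.74 ± 0.15 (adjusted p = 0.0205). TSC22D3, whose product GILZ binds RELA, rose by 3.34 ± 0.082 with dexamethasone (adjusted p = 0.00140), with 1 of its 3 probe sets called in the fit of probe sets, and the receptor gene NR3C1 stood at 0.32 ± 0.072 (0.299). With the combination HES1 stood at -2.20 ± 0.15, TSC22D3 at 3.84 ± 0.082 and NR3C1 at 1.05 ± 0.072, all called.

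**Figure D4:**
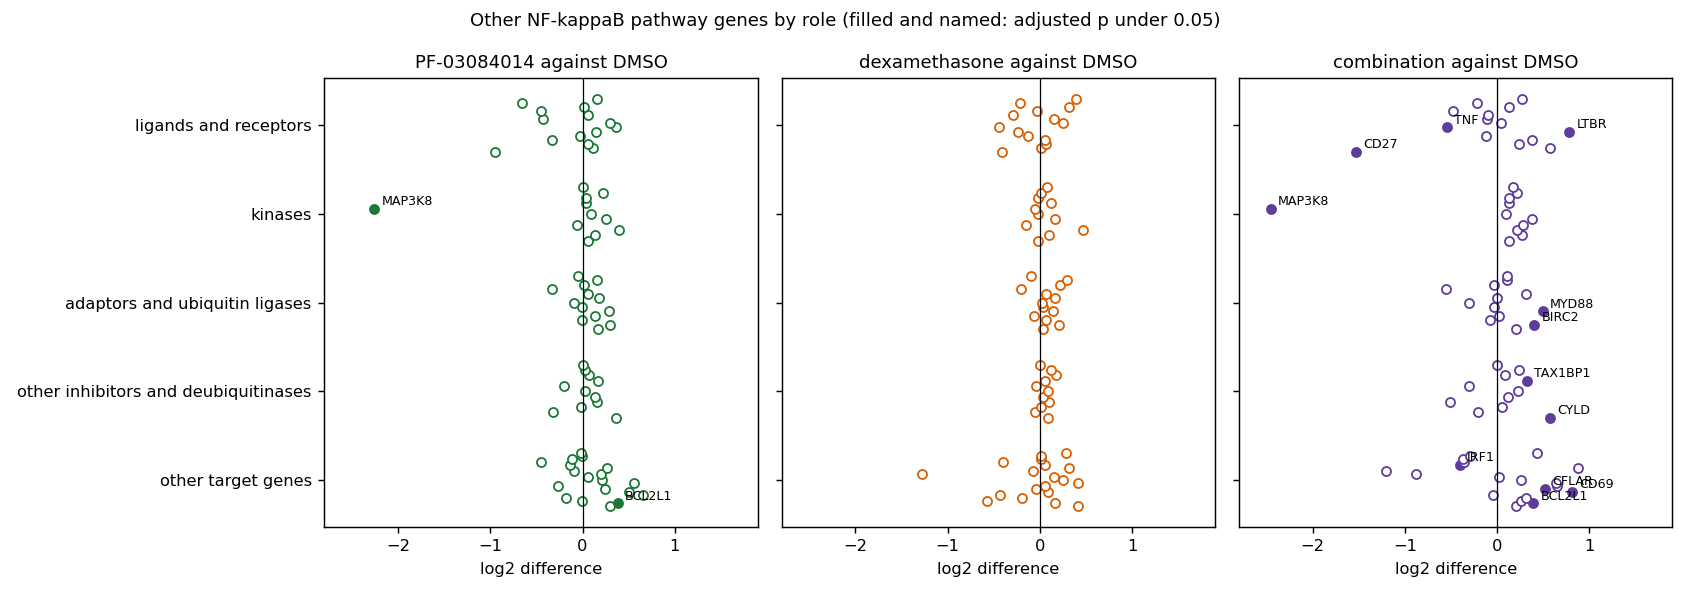
Log2 difference from DMSO of the 68 other NF-kappaB pathway genes, each a point, in 5 role groups for the 3 treatments. Filled points with names passed an adjusted p of 0.05 over all genes. With PF-03084014 these were MAP3K8 and BCL2L1, with dexamethasone none, and with the combination 8 genes higher and 4 lower.

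The patterns of the called members over the 3 treatments differed, and the genes nearest to each were sought among 10784 others with a mean intensity of at least 100, by Euclidean distance over the 3 differences from DMSO. Nearest to LTB were RASGRP1 (distance 0.086) and ARID5B (0.13), nearest to CD83 were SFRP2 (0.060) and PIM1 (0.069), and nearest to TNFAIP3 were FAM13A-AS1 (0.032) and ATG2B (0.037). PIM1, for example, stood at 0.54, -0.35 and -0.036 with PF-03084014, dexamethasone and the combination. The likeness is a description of 4 group means that share the DMSO arrays.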

How the data were processed

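RNA was hybridised as biotinylated cRNA to 1-colour Affymetrix arrays, per the labels' protocols. The authors deposited linear probe-set intensities, and how they were summarised, normalised and background-corrected is not given in the sources used here. Genes were named through the supplied platform annotation: 41097 probe sets had 1 gene, and 1801 with several genes and 11777 with none were left out. Intensities were set to at least 16 and converted to log2, and the probe set with the highest mean log2 value represented a gene, with no filter on dim genes. All 10 members were tested.

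Differences were fitted with limma 3.58.1 in R 4.3.3 over all 8 arrays, with group means as coefficients, leaving 4 residual degrees of freedom, and moderated by eBayes (trend on intensity). A second fit used every probe set with 1 gene. Errors given with ± on log2 differences are standard errors, and intervals are 95% intervals from the fit. Each group had 2 arrays, and this number limits the precision: the median standard error over genes was 0.178 log2 units. The fit was tested on simulated data for PF-03084014 against DMSO. It recovered 66% of changes of 1 log2 unit and 94% of changes of 2, with 7 false calls. A gene that was not called may therefore still have changed. The members and lists were chosen with earlier results of these data known. Named were all members, from each role the called pathway genes that moved most or else that with the smallest p, and HES1, CYLD, TSC22D3 and NR3C1. The settings tried were quantile normalization, a common median, a floor of 32, a pseudocount of 16, a minimum mean of 100, averaged probe sets, no _x_at or _s_at probe sets, no trend, only the groups compared, each array left out in turn and a replicate block.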

Additional observations from a re-analysis of the deposited data

How the results depend on the processing

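All 6 calls on members kept their sign in every setting in which the gene could be tested, which is a weak check. No trend, the replicate block and only the groups compared change the error estimate and leave the difference as it was. Without _x_at and _s_at probe sets the LTB difference of PF-03084014 from DMSO was 0.0095 ± 0.23, too small to give a direction. The count of members called moved as follows. For PF-03084014 against DMSO (2 called) it was 1 after a shift to a common median, with a floor of 32, with averaged probe sets and without _x_at and _s_at probe sets, and 0 without the trend, with a replicate block and with only the groups compared. Leaving out 1 array gave 0 to 2. For the combination against DMSO (2) it was 1 with averaged probe sets, where the called gene was LTB, higher. It was also 1 without _x_at and _s_at probe sets, where the called gene was NFKB2, lower, through its second probe set. It was 0 with only the groups compared and 1 to 2 with 1 array left out. For the combination against dexamethasone (1) it was 2, with TNFAIP3 added, after quantile normalization, with a pseudocount of 16 and with a minimum mean of 100, 0 without _x_at and _s_at probe sets and with only the groups compared, and 0 to 2 with 1 array left out. For the combination against PF-03084014 (1) it was 0 with only the groups compared and 0 to 1 with 1 array left out. With only the groups compared, 2 residual degrees of freedom were left and 0 of all genes were called in these contrasts. Dexamethasone against DMSO and the interaction gave 0 members in every setting. NFKB2 and RELB fell below the minimum mean, and RELA and TNFAIP3 have no probe set outside _s_at.

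Of the named pathway genes and regulators, which were put through the same settings after their values were seen, CFLAR changed sign without _x_at and _s_at probe sets, to -0.54 against DMSO and -0.20 against dexamethasone for the combination. HES1 stood at 0 there in its 3 called contrasts, PF-03084014 and the combination against DMSO and the combination against dexamethasone, since its remaining probe set was at the floor. TSC22D3 stood there at 0.39 with dexamethasone (limma adjusted p = 0.913) and 0.52 with the combination (0.470) against DMSO, neither called. The count of pathway genes called with the combination against DMSO was 12, 4 after the shift to a common median, 7 with averaged probe sets, 0 with only the groups compared and 4 to 21 with 1 array left out. That shift moved the median of all genes for the combination against DMSO from 0.064 to -0.067 and the interaction's from 0 to -0.15, and turned the LTB interaction, which was not called, to -0.063. Arrays with the same replicate number shared little deviation between groups, with correlations between -0.0103 and 0.0816. This cannot show whether the samples were prepared as matched sets, which the labels do not say.
With the replicate block the limma adjusted p for PF-03084014 against DMSO was 0.0620 for LTB and 0.0679 for CD83.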

Other observations

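In the combination against PF-03084014, where 2.84% of all genes were called and 1.75% called lower, 1 of the 10 members and 2 of the 68 pathway genes (2.94%) were called, all of them lower: CD83, TNF and CCR7, which encodes a lymph-node homing receptor and was singled out after its values were seen. TNF read 498 and 411 with DMSO, 575 and 588 with PF-03084014, 340.4 and 325 with dexamethasone, and 314 and 306 with the combination. CCR7 read 460.3 and 517 with DMSO, 784 and 757 with PF-03084014, 342 and 379.96 with dexamethasone, and 479 and 463 with the combination. For both, as for CD83, the arrays with PF-03084014 alone were the highest of the 8. These genes were picked because they were called lower in the combination than with PF-03084014. That choice favours genes with high PF-03084014 arrays, so the likeness is a description. The share of pathway genes called, 2.94%, was also near the 2.84% of all genes. The difference between the combination and PF-03084014 was -0.91 ± 0.10 for TNF (limma adjusted p = 0.0246) and -0.71 ± 0.088 for CCR7 (adjusted p = 0.0281). These calls held in 11 of 17 settings for TNF and 10 of 18 for CCR7, with adjusted p up to 0.211 for both. Their differences from DMSO with PF-03084014 alone were 0.36 ± 0.10 (0.226) and 0.66 ± 0.088 (0.0509), not called. LTB, next to TNF in the RefSeq gene order, differed between the combination and PF-03084014 by -0.073 ± 0.10. The neighbouring TNF and LTB therefore had different orders over the groups: TNF was lowest and LTB second highest in the combination. The difference between the 2 genes was not tested.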
